A study of Mus musculus with 96 samples.

Results

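Messages of 8 genes of the cAMP and G-protein signalling of the mouse oocyte were followed through 96 single oocytes and embryos. The genes were taken by their mouse symbols and are 8 of 55401 gene rows: the receptor genes Gpr3, Gpr149 and Gpr1, the G-protein regulator Rgs2, the G-protein subunit Gnas, the adenylyl cyclase Adcy3, the phosphodiesterase Pde3a and the protein kinase Prkaca. Cells came from C57BL/6J females that were given PMSG and, 46 h later, hCG, and that had been mated with males of that strain. The groups were 8 oocytes, 7 morulae, and embryos labelled by hours after fertilization: 5 each of 0 h, 2 h, 8 h, 10 h, 12 h, 14 h and 20 h, 2 of 4 h, 3 of 6 h, 6 of 24 h, 8 each of 16 h and 36 h, 9 of 18 h and 10 of 22 h. None was treated beyond the shared superovulation, removal of cumulus cells with hyaluronidase and culture in KSOM. The age of the females, and whether embryos of a group came from different females, are not given in the sources used here, so p-values measure the spread between single embryos only.

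Before ovulation, a mouse oocyte is held in meiotic arrest by cAMP. The orphan receptor GPR3 activates the stimulatory G protein, whose alpha subunit is a product of Gnas, adenylyl cyclase makes cAMP, and cAMP activates protein kinase A, of which Prkaca encodes a catalytic subunit. PDE3A, the main cAMP phosphodiesterase of the oocyte, ends the arrest by breaking cAMP down. RGS2 speeds the GTP hydrolysis of G-protein alpha subunits and is known in mouse eggs for holding back calcium release before fertilization. GPR149 is an orphan receptor enriched in oocytes, and GPR1 is a receptor for the secreted protein chemerin.

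Of 7 genes tested, 6 were lower at 36 h than at 24 h, where 52.3% of 12636 genes were called, higher or lower. The call of Gnas was lost with DESeq2 (adjusted p = 0.0520) and with library size alone (0.146). Rgs2 had group medians of 1756 to 3782 CPM (counts-per-million, a gene's share of the gene counts of its library after TMM scaling) from the oocyte to 24 h and was at 69.95 ± 33.28 CPM (SD, n = 8) at 36 h. Pde3a was highest at 0 h, Gpr149 at 4 h to 8 h, and Gpr1 from 16 h to 24 h. Gpr3 had its highest median at 24 h, with wide spread in most groups, and Adcy3 was barely detected. A CPM value is a share of a library: a smaller share cannot be told apart from less of that message per embryo. The cDNA was primed on poly(A) tails, so longer tails and more messages cannot be told apart either.

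Libraries held 10378 to 6795311 gene counts, with a median of 2099222, and the second lowest had 564538. The 12 oocyte markers checked (zona proteins, Gdf9, Mos and others) were all above 0 in the oocytes, with a summed level of 16250 to 22649 CPM. Replicate 5 of 10 h went against its label: its oocyte markers summed to 28.5 CPM, against 20623 to 25443 CPM in the other 10 h embryos, and its cumulus and granulosa markers summed to 9216 CPM. Morula replicate 4, the library of 10378 counts, had 2728 CPM of oocyte markers, against 80.8 to 254 CPM in the other morulae. The 10 h group entered no pairwise comparison. The letter b closes the titles of 24 libraries, all of 20 h and some of 16 h, 18 h, 22 h and 24 h. In all titles of 4 h and 6 h a b stands before the number instead, and the numbers run on over both times. What a b marks is not stated. The time-course fit without titles ending in b keeps the 4 h and 6 h libraries. Within each group that held both kinds of title, every library with b had a higher sum of blood and oviduct markers. At 22 h the sum was 121.4 to 5703 CPM with b and 5.932 to 8.456 CPM without. At 24 h it was 436.6 and 90.67 CPM with b and 7.183 to 46.18 CPM without. Titles without b could be high too, as in 0 h replicate 1 (2319 CPM). What part this has in differences by title was not tested. Oocytes and morulae were each processed apart from the embryos of 0 h to 36 h, so stage and processing batch cannot be told apart where these groups are compared.

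Since priming starts at the tail, the transcript ends of 3 genes are shown. They come from GENCODE M21 transcripts (GRCm38). Capitals mark a polyadenylation signal (AATAAA or ATTAAA) or a cytoplasmic polyadenylation element (TTTTAT or TTTTAAT), a sequence known to direct tail lengthening in maturing oocytes. The windows are 30 bases of the 3′ untranslated region, 5′ to 3′ on the minus strand except that of Adcy3 (plus strand): Adcy3 at chr12:4213489-4213518, Rgs2 at chr1:143999343-143999372 and Gpr149 at chr3:62529077-62529106.
Adcy3: aacaggactgTTTTATTAAAagctttactc
Rgs2: aatttaatacttAATAAAggtatttctcat
Gpr149: agaacAATAAAaatctAATAAAatgatctc
In Adcy3 the 2 motifs overlap. The sense strand of the last 100 bases of 1 transcript per gene held a cytoplasmic polyadenylation element in 2 of 8 genes, among them Adcy3. The share was 22.4% among 7679 coding genes tested between 0 h and oocytes, and 17.8% among all 19896 with such a window. A polyadenylation signal stood in 6 of 8 genes, against 83.5% and 78.3%.

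All 8 are annotated as protein-coding. Gpr149 lies at chr3:62529077-62605140, Gpr1 at chr1:63182691-63214543 and Rgs2 at chr1:143999338-144004161 on the minus strand. Gnas lies at chr2:174284320-174346744, Adcy3 at chr12:4133103-4213525, Pde3a at chr6:141249269-141507448 and Prkaca at chr8:83972993-83996443 on the plus strand. Per kilobase of exon, Rgs2 was far above the other genes in oocytes, at 738 CPM per kilobase, a level above 99.7% of the 24147 genes with counts there. Gpr149 followed at 22.8, Gpr1 at 20.3, Gnas at 8.04, Gpr3 at 7.88, Pde3a at 6.06, Prkaca at 3.77 and Adcy3 at 0.195 CPM per kilobase. At 20 h Gpr1 was second, at 147 CPM per kilobase, above 98.2% of 24527 genes. At 36 h Rgs2 was still first, at 19.3 CPM per kilobase, but Gpr1 had come down to 7.18 and Gpr149 to 5.55.

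**Figure D1:**
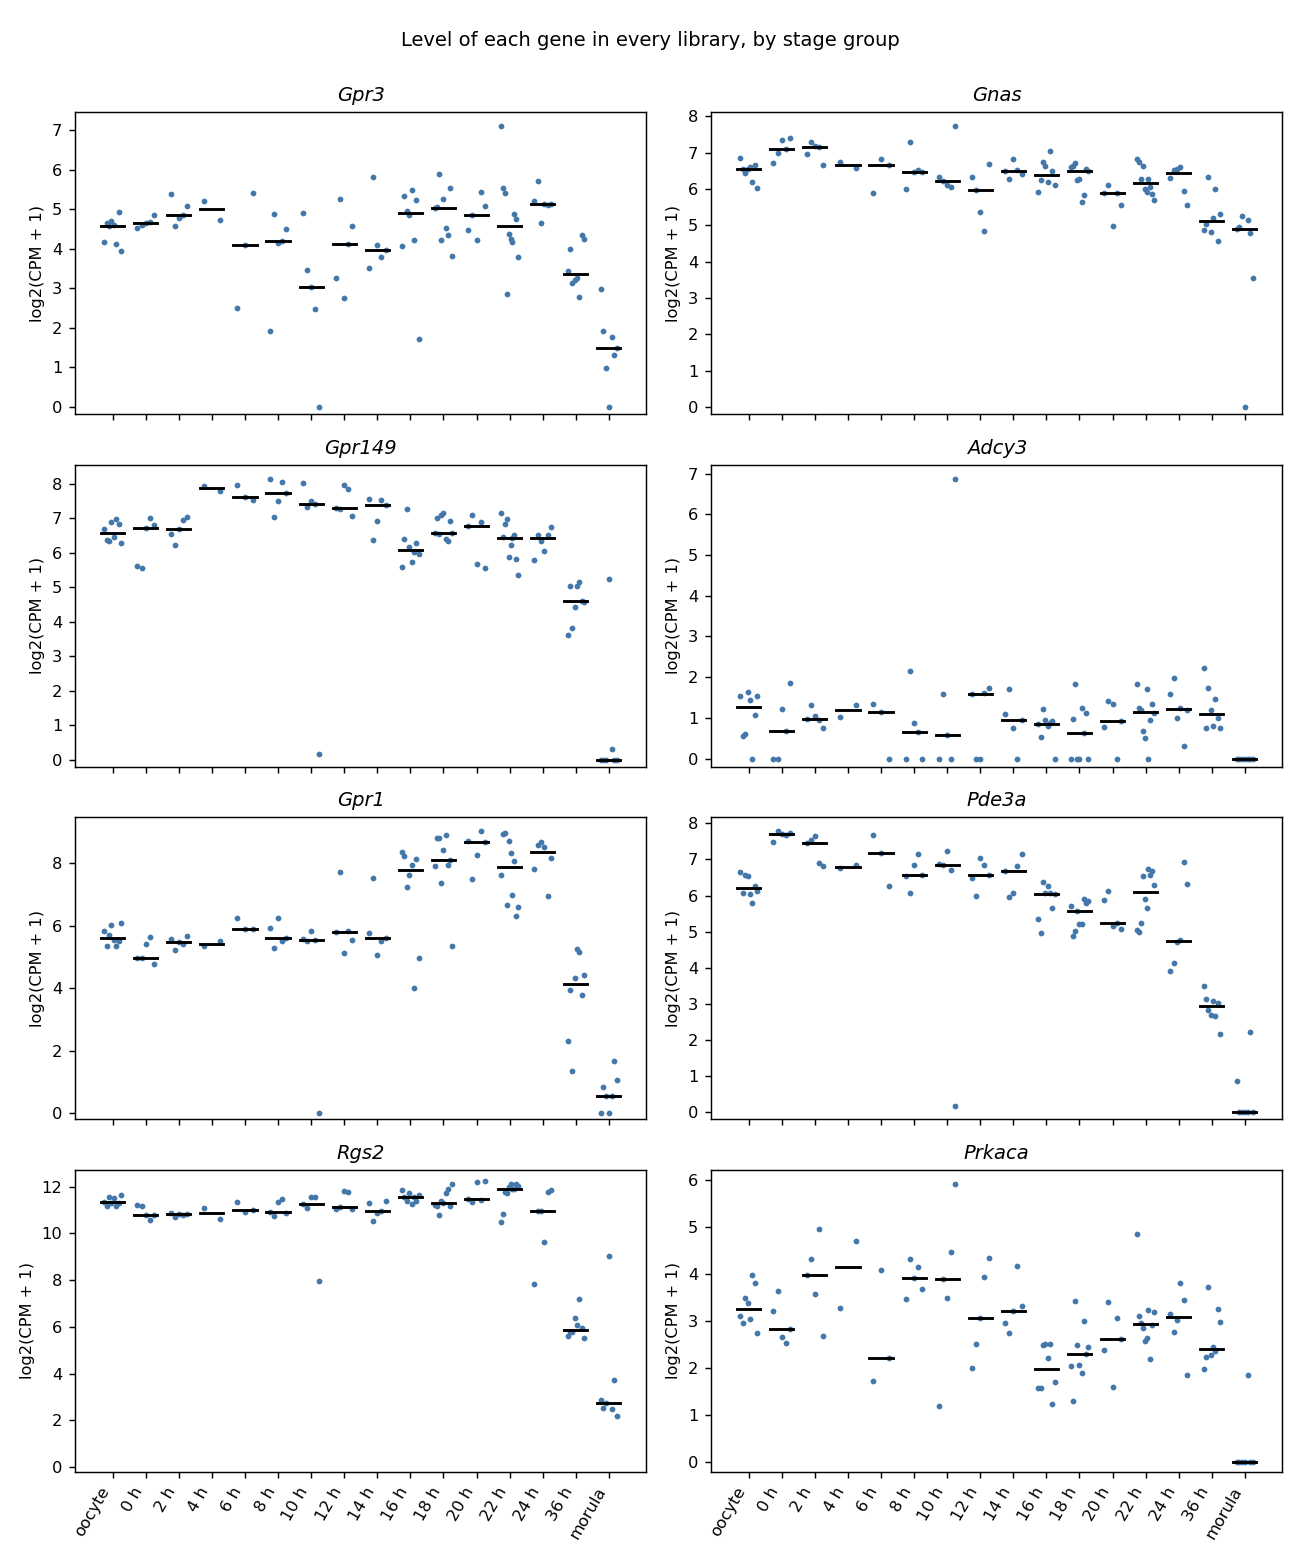
Level of the 8 genes in each of the 96 libraries on a log2(CPM + 1) axis, with a bar at the median of each of the 16 stage groups (groups evenly spaced, not to a time scale). Gpr1 has a median of 48.1 CPM in the 14 h group, below the 221 CPM of 16 h although the points overlap, and the 10 h point that stands alone in most panels is replicate 5.

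Groups were compared by edgeR's quasi-likelihood test, at an adjusted p under 0.05. Of the 7 members tested between 0 h and oocytes, 2 were higher (Gnas and Pde3a) and 2 lower (Gpr1 and Rgs2), where 45.7% of 9556 genes were called. None of 7 passed between 2 h and 0 h, where 8.25% of 8804 genes did. At an unadjusted p under 0.05, edgeR and DESeq2 each gave the same 2 of the 7 (Pde3a and Prkaca), and DESeq2 also called none after adjustment. Between 12 h and 0 h, 2 of 6 were higher (Gpr149 and Gpr1) and 2 lower (Gnas and Pde3a), against 39.0% of 8211 genes. Between 12 h and oocytes, 1 of 7 passed (Gpr149, higher), against 21.9% of 9407 genes. At 16 h, compared with 14 h after their levels had been seen, 2 of 7 were lower (Gpr149 and Prkaca), against 12.2% of 11036 genes.

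Later in the course, 24 h against 12 h gave 1 higher (Gpr1) and 1 lower (Gpr149) of 7, where 21.6% of 11083 genes passed. Between 36 h and 12 h, 4 of 7 were lower and none higher, against 60.3% of 12066 genes. Their median log2 change was -2.07, where the median of all genes tested was 0.36. Between 36 h and 24 h, 6 of 7 were lower, against 52.3% of 12636 genes. Their median was -1.67, beside 0.05 for all genes. Between morulae and 36 h, 4 of 5 were lower, against 71.7% of 11216 genes. There the median of the members was -2.46 and that of all genes -0.55, and Gpr1, Adcy3 and Prkaca were left out by the filter on low counts. Without morula replicate 4, Gpr1 passed the filter and 5 of 6 were lower, against 72.8% of 12199 genes. Over the 81 libraries of 0 h to 36 h, all 8 passed a test for any change, as did 78.4% of 18543 genes.

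Without TMM factors (library size alone), the median change over all genes tested went from -0.02 to -0.29 between 12 h and 0 h, from 0.03 to -0.22 between 12 h and oocytes and from 0.02 to 0.16 between 16 h and 14 h. It moved it from 0.05 to 0.25 between 24 h and 12 h, from 0.36 to 0.80 between 36 h and 12 h, from 0.05 to 0.29 between 36 h and 24 h and from -0.55 to -0.78 between morulae and 36 h. Of all genes called, the share that was higher went from 50.4% to 31.0%, from 61.6% to 26.6%, from 46.0% to 67.4%, from 61.95% to 75.3% and from 60.3% to 72.1% in the first 5 of these. A single fit of all 96 libraries, which shares 1 estimate of the spread, ended the calls of Gpr1, Rgs2 and Gnas between 0 h and oocytes, of Gpr149, Gpr1 and Pde3a between 12 h and 0 h, of Gpr149 between 12 h and oocytes and between 24 h and 12 h, and of both genes at 16 h.

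**Figure D2:**
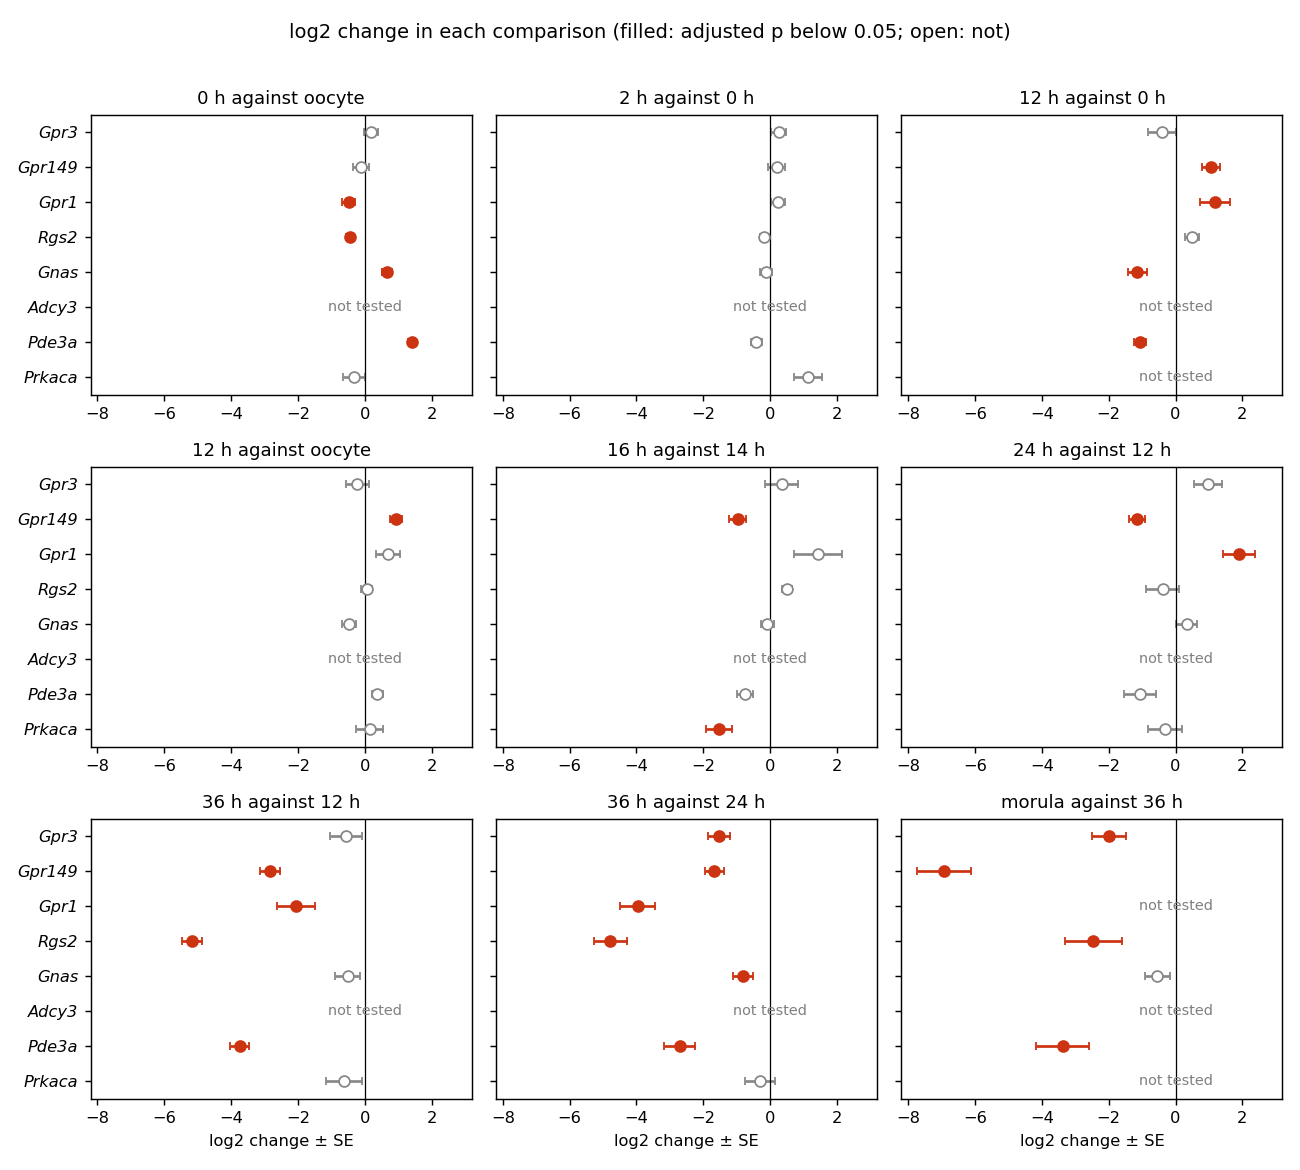
log2 change with its standard error (SE) for the 8 genes in the 9 comparisons, first group minus second. Filled points have an edgeR adjusted p under 0.05, and genes left out by the filter on low counts are marked as not tested.

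Gpr3, whose receptor keeps cAMP high in the oocyte before ovulation, was present at 14.3 to 29.4 CPM in the 8 oocytes, with a median of 23.0. Their source label reads only oocyte and the females were given hCG, so whether they were still in that arrest cannot be told. The 0 h embryos had 22.1, 23.2, 24.2, 24.6 and 27.9 CPM, inside the oocyte range (log2 change 0.18 ± 0.20 SE, edgeR adjusted p = 0.489). Gpr3 lies on chromosome 4 (GRCm38, chr4:133209340-133212536, minus strand), and 204 of its exon bases lie opposite those of Cd164l2, whose count over all libraries was 1302% of its own. Whether strand was used is not stated, so the level of Gpr3 is uncertain.

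The 12 h embryos had 8.49, 37.6, 5.72, 16.3 and 22.8 CPM of Gpr3, and those of 14 h had 10.5, 55.1, 16.0, 12.9 and 14.7 CPM. In each group 1 embryo, replicate 2, stood above the rest. The 24 h embryos had 24.3 to 51.96 CPM, with a median of 34.0, which overlapped the 12 h range. The log2 change of 0.97 ± 0.42 (SE) was not called (edgeR adjusted p = 0.108), but without 12 h replicate 2 it was 1.40 with an adjusted p of 0.0199. At 22 h the 3 embryos without a b in the title had 41.9 to 136.7 CPM, above all 7 with it (6.24 to 28.6 CPM).

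Gpr3 fell by 1.53 ± 0.32 (SE) on the log2 scale between 24 h and 36 h (edgeR adjusted p = 7.9e-04), to 5.91 to 19.3 CPM (median 9.21), with no overlap. It fell again by 1.99 ± 0.52 to the morula (adjusted p = 0.00145), where 6 of 7 embryos had 0.9504 to 6.83 CPM and replicate 4 had 0. Without replicate 4 the log2 change was -1.86 (adjusted p = 0.0032). The highest morula lay above the lowest 36 h embryo. All 15 neighbouring pairs in the order of its 16 group means differed by less than the larger SD of the pair. Its test for any change from 0 h to 36 h (edgeR adjusted p = 0.0418) did not pass without the 36 h group (adjusted p = 0.274), nor with DESeq2 (adjusted p = 0.0504). The paralogous receptor genes Gpr6 and Gpr12, which also raise cAMP, were listed at 0 CPM in every group and at 0.842 CPM or less, respectively.

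Gpr149, the orphan receptor gene, rose after fertilization and fell in steps. Oocytes had 77.2 to 124.9 CPM (median 95.1), and the 0 h embryos 48.3, 46.4, 104.3, 127.3 and 111.5 CPM. The 2 embryos of 4 h had 244 and 221 CPM, and 3 of 6 h had 248, 195 and 185 CPM. These 5 values all lay above every oocyte and every embryo of 0 h and 2 h, a difference that was not tested. The titles of these 5 embryos, and of no others, hold a b before the number.

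By 12 h the values of Gpr149 were 157, 153, 248, 227 and 133.1 CPM, above all oocytes and all 0 h embryos. It was 1.06 ± 0.28 (SE) higher than at 0 h on the log2 scale (edgeR adjusted p = 0.00600) and 0.94 ± 0.18 higher than in oocytes (adjusted p = 8.1e-04). The first comparison lies within 1 processing cohort. In that comparison 0 h replicates 1 and 2 had the lowest values, and the call held without either.

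From 14 h (187, 81.5, 121.1, 183 and 168 CPM) to 16 h (46.9 to 154 CPM, median 67.4), Gpr149 fell by 0.97 ± 0.26 (SE) on the log2 scale (edgeR adjusted p = 0.0219). The call was lost without 14 h replicate 1 or 5 (adjusted p = 0.0632 for each) or replicate 4 (0.0700), and with the 3 embryos of 16 h whose titles do not end in b (-0.64, adjusted p = 0.246). The fall from 12 h to 24 h (53.9 to 106.3 CPM, median 85.1) was 1.16 ± 0.24, with no overlap (adjusted p = 0.00469).

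At 36 h the level of Gpr149 was 11.4 to 34.9 CPM (median 23.2), below every 24 h embryo, and the log2 change from 24 h was -1.67 ± 0.28 (edgeR adjusted p = 1.5e-04). In morulae it was 0 CPM in 5 of 7, 0.239 CPM in replicate 5 and 36.9 CPM in replicate 4. The last value is 1 count in a library of 10378. With 2 counts in all morulae against 463 at 36 h, the ratio of pooled CPM was 175, with a 95% counting interval of 48.3 to 1453 (edgeR log2 change -6.94 ± 0.81, adjusted p = 5.5e-08). Without morula replicate 4 the log2 change was -7.67 (adjusted p = 3.3e-09).

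Gpr1, the chemerin receptor gene, had its highest group medians from 16 h to 24 h. Its level was 39.5 to 66.7 CPM in oocytes (median 47.9), 30.4, 30.3, 41.7, 49.2 and 26.1 CPM at 0 h, and 46.6, 36.5, 43.2, 41.4 and 49.7 CPM at 2 h. The 0 h value was 0.48 ± 0.19 (SE) below that of oocytes on the log2 scale (edgeR adjusted p = 0.0430), with overlap and across processing batches. This call was lost when any 1 of 10 of the 13 libraries was left out (adjusted p up to 0.132), and held only without oocyte replicate 2 or 0 h replicate 3 or 4.

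The 12 h embryos had 54.9, 207, 33.5, 56.1 and 45.8 CPM of Gpr1, and those of 14 h had 53.3, 182, 32.0, 44.5 and 48.1 CPM. Replicate 2 stood apart in both groups. The rise from 0 h to 12 h (log2 change 1.19 ± 0.45 SE, edgeR adjusted p = 0.0448) rested on it: without 12 h replicate 2 the change was 0.40 (adjusted p = 0.258), and the call was lost in 7 of 10 such fits.

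At 16 h, 6 embryos had 150 to 325 CPM of Gpr1, and replicates 6 and 8 had 14.9 and 30.4 CPM. Their group median was 221 CPM, that of 14 h being 48.1 CPM. With replicate 2 of 14 h high and 2 embryos of 16 h low, the groups overlapped, and the log2 change of 1.43 ± 0.71 (SE) was not called (edgeR adjusted p = 0.188). It was 1.62 without 16 h replicate 6 (adjusted p = 0.0471) and 1.89 without the embryos whose titles end in b (adjusted p = 0.0612).

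At 18 h 1 embryo, replicate 9, was at 39.4 CPM and the other 8 were at 165 to 473 CPM. The highest group median of Gpr1, 406 CPM, was that of 20 h, and at 24 h the range was 123.3 to 407 CPM (median 326). The change from 12 h to 24 h was 1.90 ± 0.47 (SE) on the log2 scale (edgeR adjusted p = 0.0114), or 2.66 without 12 h replicate 2 (adjusted p = 3.1e-04). It missed the threshold with no filter on low counts (adjusted p = 0.0535).

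By 36 h Gpr1 was at 1.54 to 37.2 CPM (median 16.7), and every value was below every 24 h embryo. It fell by 3.97 ± 0.51 on the log2 scale from 24 h (edgeR adjusted p = 1.7e-05), and by 2.07 ± 0.57 from 12 h (adjusted p = 0.00394), or by 1.34 without 12 h replicate 2 (adjusted p = 0.0459). In morulae it had 11 counts in all, with 0 to 2.18 CPM per embryo. Without morula replicate 4 it passed the filter and fell by 4.32 from 36 h (adjusted p = 4.2e-05). Of the 15 neighbouring pairs in the order of its group means, 0 h over 36 h and 36 h over morulae differed by more than the larger SD.

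The embryos that stood apart for Gpr1 also stood apart for C87977, the gene closest to it in profile. Its Pearson r was 0.979 over the 16 group means of log2(CPM + 1), among 8097 genes of at least 10 CPM. These means hold the same embryos, so part of the likeness is built in. C87977 was at 873 CPM in 12 h replicate 2, where the others had 206 to 375 CPM, and at 623 CPM in 14 h replicate 2, where the others had 170 to 365 CPM. It was at 95.8 and 89.96 CPM in 16 h replicates 6 and 8, where the others had 536 to 891 CPM. In 18 h replicate 9 it was at 111.9 CPM, where the others had 563 to 1489 CPM. Fbxw26, the next in profile, was at 65.6 CPM in 18 h replicate 9, where the others had 80.6 to 324 CPM. In 12 h replicate 2 it was at 73.4 CPM, where the others had 15.2 to 36.7 CPM. Oocyte markers summed to 15127 and 14323 CPM in 16 h replicates 6 and 8, where the others had 8134 to 11291 CPM. In 18 h replicate 9 they summed to 17466 CPM, where the others had 7581 to 11957 CPM. Replicate 2 had the lowest sum of its group at 12 h (14288 CPM) and at 14 h (9771 CPM). These 5 embryos were picked after their Gpr1 values had been seen, and what sets them apart was not tested.

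**Figure D3:**
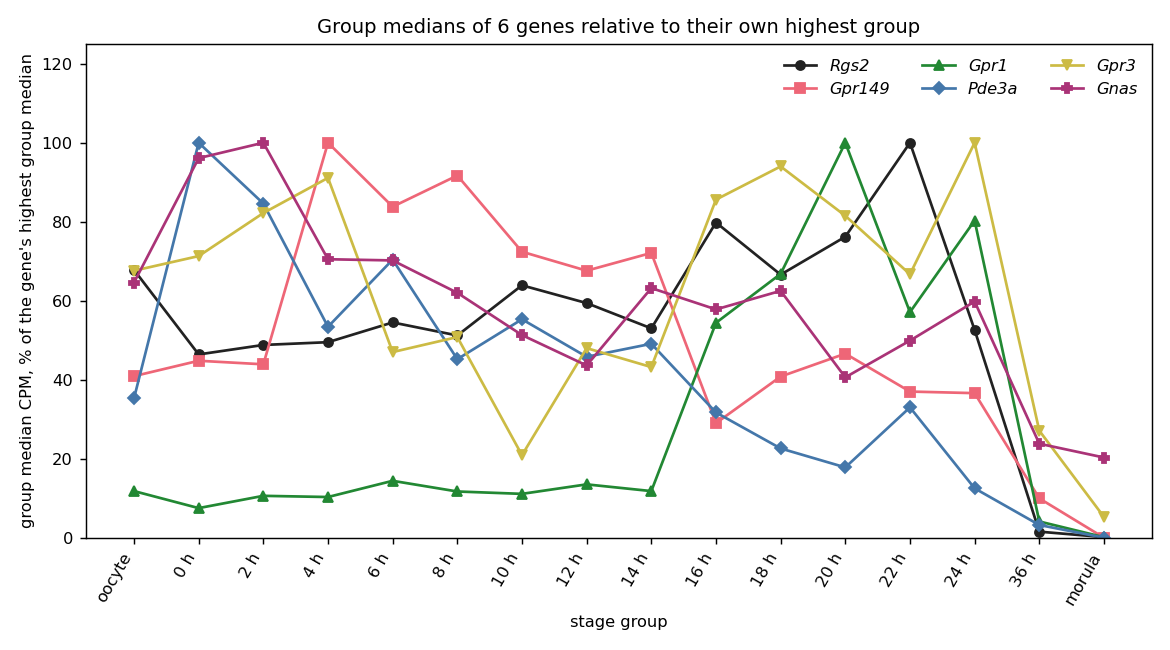
Median CPM of each group as a percentage of the same gene's highest group median, for 6 genes (groups evenly spaced). Gpr1 is at 14.4% or less until 14 h and at 54.4% or more from 16 h to 24 h, whereas Pde3a goes from 35.3% in oocytes to its maximum at 0 h and Rgs2 peaks at 22 h.

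Rgs2 had the most counts of the 8 genes, 544689 of the 96 libraries together. Oocytes had 2276 to 3208 CPM (median 2566) and the 0 h embryos 2344, 2329, 1756, 1513 and 1744 CPM. The groups overlapped, and the 0 h level was 0.45 ± 0.12 (SE) lower on the log2 scale (edgeR adjusted p = 0.00408), across processing batches. At 2 h the values were 1860, 1666, 1844, 1785 and 1846 CPM, with no call against 0 h (log2 change -0.17 ± 0.14, adjusted p = 0.510).

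The 12 h embryos had 2138, 2246, 3555, 3528 and 2110 CPM of Rgs2, of which replicates 3 and 4 stood above the rest. Their change from 0 h, 0.49 ± 0.21 (SE), missed the threshold (edgeR adjusted p = 0.0715), but passed without 12 h replicate 1 (0.0499) or 5 (0.0405) and with DESeq2 (0.0440). From 14 h (1480 to 2664 CPM) to 16 h (2431 to 3720 CPM) the change was 0.50 ± 0.16 (adjusted p = 0.0516). That change passed without 16 h replicate 3 (0.0326) or 5 (0.0487), with library size alone (0.00601) and with DESeq2 (0.0120). The highest group median of Rgs2, 3782 CPM, was at 22 h.

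At 24 h the embryos differed widely in Rgs2: 228, 1977, 2003, 804, 3495 and 3756 CPM in replicates 1 to 6. The last 2 are those whose titles end in b. Markers of the 2-cell stage (Zscan4c, Zscan4d, Zfp352 and others) summed to 1714 and 2109 CPM in replicates 1 and 4, the embryos lowest in Rgs2. They summed to 178 and 284 CPM in replicates 2 and 3, and to 73.9 and 55.4 CPM in replicates 5 and 6. The 36 h embryos had 681 to 2357 CPM of these markers. Whether the progress of these embryos accounts for the spread of Rgs2 was not tested.

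Rgs2 at 36 h was 45.3 to 147 CPM (median 57.9), below every earlier embryo. It fell by 4.78 ± 0.50 (SE) on the log2 scale from 24 h (edgeR adjusted p = 2.5e-06), a 27.4-fold change, and by 4.08 (adjusted p = 1.7e-05) without the b embryos. The fall from 12 h was 5.17 ± 0.30 (adjusted p = 3.7e-10), or 36.0-fold. This was the largest change of any member in that comparison. Without the 36 h group, the test for any change in Rgs2 over the time course had an adjusted p of 0.0997.

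Morulae had 3.56 to 12.3 CPM of Rgs2, other than 516 CPM in replicate 4, the shallow library. With it the mean of morulae, 79.1 CPM, lay above that of 36 h, whereas the count model gave a fall of 2.46 ± 0.85 (edgeR adjusted p = 0.0130). Without it the mean was 6.21 ± 3.16 CPM (SD, n = 6) and the fall 3.33. The call was lost with DESeq2 (-0.50, adjusted p = 0.647), with library size alone (-2.45, 0.0721) and with no filter (-2.39, 0.0545).

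**Figure D4:**
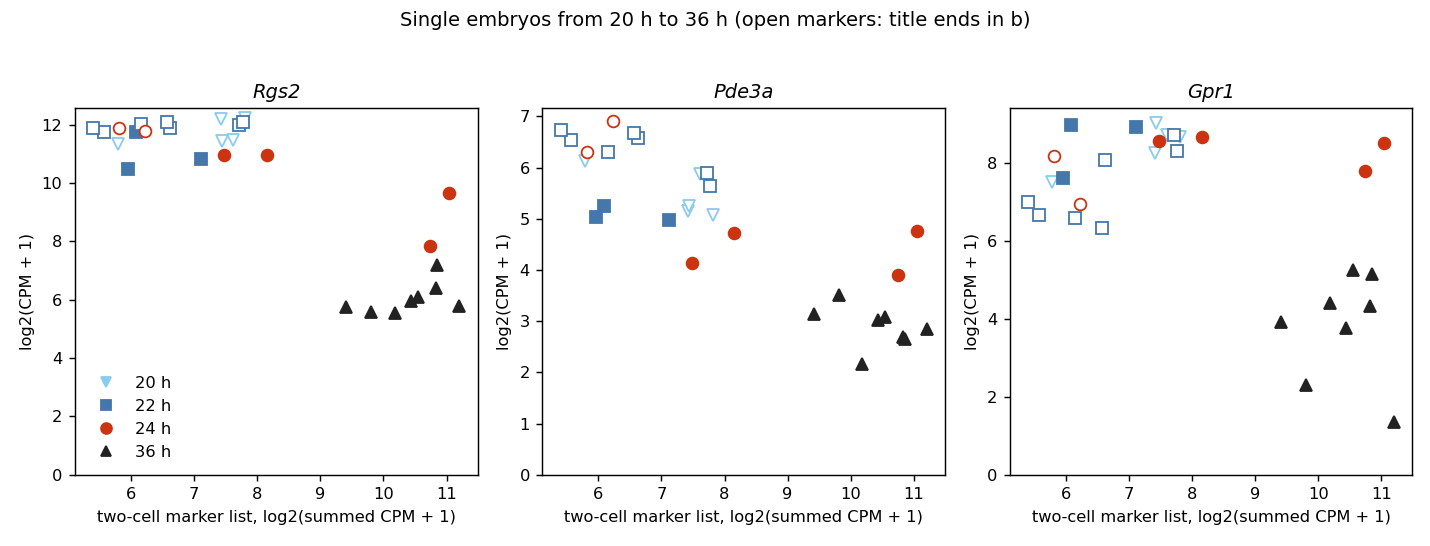
Rgs2, Pde3a and Gpr1 in single embryos of 20 h, 22 h, 24 h and 36 h, each as log2(CPM + 1), plotted against the summed CPM of the two-cell marker list on the same scale, with open markers for titles that end in b. The 24 h embryos with 1714 and 2109 CPM of markers have low Rgs2 but still have Gpr1 at 222 and 365 CPM.

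Gnas encodes the alpha subunit of the stimulatory G protein, and its count cannot be separated from that of a gene on the other strand. Gm20721 shares 1469 exon bases with it, and its deposited count was 93.1% to 100% of that of Gnas in the 87 libraries outside 36 h that had a Gnas count. At 36 h it was 62.99% to 98.5% (median 86.4%, n = 8). Nespas, an antisense gene sharing 988 bases, had 26.3% of the Gnas count at 36 h and 0.660% to 2.67% in the other groups. Gnas values may thus belong to either strand.

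Oocytes had 63.8 to 114.8 CPM of Gnas (median 92.04), and 0 h replicates 2 to 5 had 126.6, 164, 136.9 and 169 CPM. Replicate 1, the lowest of 0 h, lay below the highest oocyte. The log2 change was 0.66 ± 0.14 (SE, edgeR adjusted p = 5.6e-04), across processing batches. By 12 h the values were 79.9, 62.1, 40.01, 27.5 and 102.1 CPM, all below every 0 h embryo (log2 change -1.14 ± 0.29, adjusted p = 0.00449). Against oocytes the 12 h level was not called (-0.47 ± 0.22, adjusted p = 0.142), other than without 12 h replicate 5 (-0.71, adjusted p = 0.0234).

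From 24 h (46.3 to 95.5 CPM) to 36 h (22.9 to 79.5 CPM), Gnas fell by 0.81 ± 0.31 (SE) on the log2 scale (edgeR adjusted p = 0.0342). The ranges overlapped, and the call was lost without 24 h replicate 2, 3 or 4 or 36 h replicate 5 or 8 (adjusted p 0.0552 to 0.0658). Library size alone (-0.57, 0.146) and DESeq2 (-0.70, 0.0520) lost it as well. The b embryos of 24 h were the lowest of their group, at 60.5 and 46.3 CPM, and without them the change was -1.05 (adjusted p = 0.0163). Replicates 3 and 6 of 36 h, the highest in Gnas (79.5 and 63.2 CPM), had 1101 and 217.5 CPM of cumulus and granulosa markers. The other 36 h embryos had 24.7 to 73.1 CPM of these markers. The library with the most of these markers was also the highest in Gnas at 0 h, 2 h, each time from 6 h to 22 h, and 36 h. It was not in oocytes, at 4 h, at 24 h or in morulae. At 10 h, replicate 5 had 9216 CPM of markers and the highest Gnas, 210.7 CPM. Replicate 4 of 10 h had 1320 CPM of markers and the lowest Gnas of its group, 65.2 CPM. What part cumulus cells have in these Gnas values was not tested. In morulae Gnas was at 10.7 to 37.1 CPM, with 0 in replicate 4. The change from 36 h was not called (-0.54 ± 0.37, adjusted p = 0.198), other than by DESeq2 (-0.89, adjusted p = 0.0398).

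Adcy3 is known as an adenylyl cyclase of the rodent oocyte, yet these libraries held little of its message. Oocytes had 0 to 2.09 CPM, 19 counts in 8 libraries, and medians of the other groups were 0 to 2.00 CPM. Its exons share 1380 bases with those of Cenpo on the other strand, which was at 156 CPM in oocytes, and the deposited Adcy3 value was not whole in 49 of the 86 libraries above 0. It passed the filter in none of the 9 comparisons.

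Its call over the time course (edgeR adjusted p = 9.7e-10) rested on 10 h replicate 5, at 116.2 CPM, where the other 10 h embryos had 0, 2.00, 0.491 and 0 CPM. Without that library Adcy3 did not pass the filter. In morulae the deposited Adcy3 values summed to 1.5 and were each rounded to 0, so no fold is given. Other adenylyl cyclases were low too: Adcy8 had the highest mean of the list at 12 h, 14.7 CPM, followed by Adcy9 at 5.31 CPM.

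Pde3a, the phosphodiesterase that lowers cAMP when meiosis resumes, was highest just after fertilization. Oocytes had 54.24 to 99.8 CPM (median 72.8). The 0 h embryos had 179, 219, 207, 202 and 212 CPM, with no overlap. The log2 change was 1.41 ± 0.13 (SE, edgeR adjusted p = 4.0e-09), a 2.66-fold difference across processing batches, and it was 1.39 to 1.51 when each library was left out in turn.

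From there Pde3a declined within the cohort. The 2 h replicates 1 to 4 had 175, 187, 200.4 and 117.7 CPM and replicate 5 was the lowest, not called against 0 h (log2 change -0.41 ± 0.17, edgeR adjusted p = 0.143). The 12 h embryos had 88.9, 63.04, 129.8, 114.2 and 94.5 CPM, below every 0 h embryo (-1.06 ± 0.19, adjusted p = 2.7e-04) and overlapping the oocytes (0.37 ± 0.17, adjusted p = 0.140). From 14 h (60.8 to 142 CPM) to 16 h (30.2 to 81.7 CPM) the change was -0.74 ± 0.24 (adjusted p = 0.0529). It passed without 14 h replicate 2 (0.0330) or 3 (0.0498), without 16 h replicate 3 (0.0304) and with DESeq2 (0.0339).

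At 24 h, Pde3a split by title. The 4 embryos without a b had 14.0, 16.7, 25.3 and 26.3 CPM, and the 2 with it had 120 and 78.27 CPM. At 22 h, too, the 3 without it (30.7 to 37.0 CPM) lay below all 7 with it (49.04 to 105.8 CPM). Markers of the 2-cell stage also split by title at 24 h, with 177.5 to 2109 CPM without a b and 55.44 to 73.91 CPM with it. At 22 h those markers overlapped (61.13 to 137.9 and 41.41 to 217.3 CPM). What part either has in the level of Pde3a was not tested. Over all 24 h embryos the change from 12 h was not called (-1.06 ± 0.49, edgeR adjusted p = 0.132). It was -2.24 without the b embryos (adjusted p = 5.2e-05) and -1.59 without replicate 5 alone (adjusted p = 0.0108).

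At 36 h Pde3a was at 3.48 to 10.4 CPM, below every 24 h embryo. It fell by 2.71 ± 0.46 (SE) from 24 h (edgeR adjusted p = 1.7e-04), by 1.56 without the b embryos (adjusted p = 0.00253), and the log2 change from 12 h was -3.75 ± 0.28 (adjusted p = 4.3e-09). Morulae had 7 counts of Pde3a in all, with 0 CPM in 5 of 7, 0.804 CPM in replicate 1 and 3.63 CPM in replicate 6. The fall from 36 h was 3.38 ± 0.79 (adjusted p = 5.3e-04), or 4.96 without morula replicate 6 (adjusted p = 1.2e-05). Without morula replicate 4 it fell by 3.24 (adjusted p = 0.00189).

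Prkaca, a catalytic subunit of protein kinase A, was low throughout, at 5.72 to 14.8 CPM in oocytes (median 8.56). The 0 h embryos had 8.35, 11.6, 5.38, 4.80 and 6.10 CPM and those of 2 h had 14.9, 19.0, 10.9, 30.2 and 5.45 CPM. These overlapped, and the log2 change of 1.12 ± 0.42 (SE) was not called (edgeR adjusted p = 0.108). In 10 h replicate 5, whose oocyte markers were near 0, it was at 59.9 CPM, where the other 10 h embryos had 1.31 to 21.3 CPM.

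Between 14 h (6.75, 5.74, 8.35, 17.0 and 9.06 CPM) and 16 h (1.35 to 4.76 CPM, median 2.97), Prkaca fell by 1.54 ± 0.39 on the log2 scale with no overlap (edgeR adjusted p = 0.0179). The cumulus and granulosa list (18 genes) summed to 69.99 to 1344 CPM at 14 h and to 45.01 to 277 CPM at 16 h, and its part in this difference was not tested. The call was lost without 14 h replicate 4 (-1.23, adjusted p = 0.0786) and without the b embryos (-1.68, 0.0749). Prkaca was called in no other pairwise comparison. Morulae had 11 counts, all in replicate 5 (2.63 CPM), and every morula lay below every 36 h embryo (2.96 to 12.4 CPM), with no test because of the filter.

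The rest of the pathway was read from 145 genes in 7 lists, without the 8. Between 0 h and oocytes, 13 were higher and 12 lower of 60 tested, or 41.7%, where 45.7% of all genes were called. Their median log2 change was 0.06, beside -0.02 for all genes. Gna14, a G-protein alpha subunit of the Gq family, was 34.4 CPM in oocytes and 182 CPM at 0 h (log2 change 2.43 ± 0.17 SE, edgeR adjusted p = 5.8e-11). Cdc25b, the phosphatase that starts the resumption of meiosis, went from 6.80 to 35.5 CPM (2.58 ± 0.32, adjusted p = 4.6e-07). Gnai2, an inhibitory alpha subunit, was lower at 0 h, 83.4 against 162 CPM (-0.94 ± 0.15, adjusted p = 1.6e-05). Rapgef4, a cAMP-activated exchange factor, was also lower, 8.98 against 28.1 CPM (-1.59 ± 0.25, adjusted p = 1.4e-05).

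Of the phosphodiesterases, Pde3b was higher at 0 h than in oocytes, as Pde3a was (98.3 against 69.4 CPM, 0.51 ± 0.16, edgeR adjusted p = 0.00961). Pde8a was higher (0.57 ± 0.15, adjusted p = 0.00379) and Pde4a, at 1.31 against 5.93 CPM, lower. Between 12 h and 0 h, 4 of 49 tested were higher and 13 lower, or 34.7% against 39.0% of all genes, with a median of -0.27 beside -0.02. The lower ones included Gna14 (56.5 CPM at 12 h), Akap12 and Akap1, which anchor protein kinase A, and the coactivator gene Crebbp (68.7 against 222 CPM). Prkar2b, a regulatory subunit of the kinase, was higher (185 against 85.4 CPM, 1.11 ± 0.27, adjusted p = 0.00308).

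Around 16 h, 2 of 70 listed genes tested were higher than at 14 h and 1 lower, or 4.29% against 12.2% of all genes, with a median of 0.05 beside 0.02. The higher ones were Akap12 and Cmklr1, the other chemerin receptor gene, at 8.39 against 0.768 CPM (log2 change 3.47 ± 0.44 SE, edgeR adjusted p = 0.00153). Gpr1, with a median of 221 against 48.1 CPM, was not called there. Cmklr1 was also higher at 24 h than at 12 h (3.03 ± 0.90, adjusted p = 0.0275), where 8 of 64 tested were higher and 2 lower, or 15.6% against 21.6% of all genes, with a median of 0.17 beside 0.05.

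Between 36 h and 24 h, 13 listed genes were higher and 14 lower of 70 tested, or 38.6% against 52.3% of all genes, with a median of -0.13 beside 0.05. Of the receptors, Adora2b, an adenosine receptor gene, was at 32.8 against 1.07 CPM (log2 change 4.76 ± 0.87 SE, edgeR adjusted p = 2.8e-04), and Adgrg2 at 16.6 against 2.30 CPM (3.04 ± 0.74, adjusted p = 0.00251). Of 21 receptor and ligand genes listed, 5 were tested, with 3 higher and none lower, where 3671 of all 12636 genes were higher. With so little at 24 h, Adora2b and Adgrg2 likely passed the filter on low counts through 36 h, where they are high. A lower call was then hardly open to them, so these counts are no result on the receptors as a set. Rgs17, like Rgs2 a regulator of G-protein signalling, fell from 634 to 97.01 CPM (-2.61 ± 0.42, adjusted p = 1.0e-04), whereas Rgs11 rose (4.68 ± 1.09, adjusted p = 0.00210). Pde3b and Pde8a fell, 2 of 7 phosphodiesterases tested. Of 16 genes for protein kinase A subunits, inhibitors and anchors, 1 rose (Akap8) and 5 fell, among them Akap12 and Akap2.

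Between morulae and 36 h, across processing batches, 5 of 56 were higher and 34 lower, or 69.6% against 71.7% of all genes, with a median of -2.38 beside -0.55. Without morula replicate 4, 7 of 62 were higher and 37 lower, with a median of -2.68 beside -0.47. Gpr161 was higher, at 40.7 against 7.98 CPM (log2 change 2.58 ± 0.52 SE, edgeR adjusted p = 9.7e-05), as were Akap1 and Prkacb. With Prkaca at 11 counts in morulae, Prkacb, the other catalytic subunit gene, had 174 counts there (1.63 ± 0.61, adjusted p = 0.0192; 1.80 without morula replicate 4, adjusted p = 0.0145).

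The genes most alike in profile were taken by the highest Pearson r over the 16 group means. These were Itpr2 and the pseudogene Phf20-ps for Rgs2 (both 0.991), Slc7a11 for Pde3a (0.993), Cd226 for Gpr149 (0.989), Lhx8 for Gpr3 (0.956) and Snx7 for Prkaca (0.936). Gm20721 was the first for Gnas (0.998), with which it shares exon bases. Without 10 h replicate 5 and morula replicate 4, the first was Zfp616 for Gpr149 (0.995) and Dync1i2 for Gpr3 (0.965), and those of Gpr1, Rgs2, Gnas, Pde3a and Prkaca were the ones named. The 16 means share libraries and depth, and no p is given.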

How the data were processed

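Messages of single C57BL/6J oocytes and embryos were measured with SMART-Seq v4 and Nextera XT, per the labels' protocols. Expected counts of 55401 genes and 873 repeat families were deposited for 96 libraries, and 28.4% of the non-zero gene values are not whole. Per the submitters' processing notes, Trimmomatic 0.39, STAR and featureCounts were run on mm10. Their options, the annotation release and the use of strand are not given in the sources used here. Reads shared between overlapping genes may thus be split or counted for both.

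Expected counts were rounded, and repeat families left out. Levels are CPM with TMM factors over all 96 libraries. For each comparison, edgeR 4.0.16 under R 4.3.3 was run on the libraries of its 2 groups only. Genes were kept by filterByExpr, scaled by TMM and tested, two-sided, by the robust quasi-likelihood F test. The Benjamini-Hochberg method adjusted p over every gene tested, with calls at 0.05. Adjusted p-values are those of edgeR where DESeq2 (1.42.0) is not named. The scripts were tested on simulated data. Amplified reads are not independent molecules, so counting intervals cover counting error only.

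Members, comparisons and lists were chosen with earlier results of these data known. Named were the 8 members, up to 2 higher and 2 lower genes per list and comparison by smallest adjusted p, of which examples are printed, and the 3 genes most alike each member, of which the first are printed. The comparison of 16 h with 14 h was added after levels were seen. Symbols come from GENCODE M21 (55141 identifiers matched, of 55401). Of the listed symbols, 3 had no row.

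The 2 alternatives that leave out groups of the time course were chosen after seeing the data. Title numbers are shared across groups, but nothing in the labels says that a number marks a shared litter or day.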

Additional observations from a re-analysis of the deposited data

Results flagged for a closer look

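In 16 sets of values (1 gene in 1 group of 4 to 10 libraries), there was a highest or lowest library farther from the others than Dixon's 95% limit allows. These were 14.4% of the sets tested. The limit flags about 1 in 20 separate sets of normally spread values. Sets near 0 CPM are not spread so, and the sets share libraries, so the 2 shares cannot be compared directly. In the 10 h group, replicate 5 was flagged for 3 genes: Gpr1 at 0 CPM (next 44.1), Gnas at 211 CPM (next 79.6) and Adcy3 at 116.2 CPM (next 2.00). Its cumulus and granulosa markers summed to 9216 CPM and its morula markers to 6674 CPM. Morula replicate 4, with 10378 counts, was flagged for Rgs2 at 516 CPM (next 12.3) and Gpr149 at 36.9 CPM (next 0.239).

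Gpr1 was flagged at 207 CPM in 12 h replicate 2 (next 56.1) and at 182 CPM in 14 h replicate 2 (next 53.3). The latter embryo was also high in Gpr3, at 55.1 CPM (next 16.0). In 22 h replicate 1, Gpr3 reached 136.7 CPM (next 45.6) and Prkaca 28.1 CPM (next 8.44). Gpr149 reached 154 CPM in 16 h replicate 3 (next 83.5), and Rgs2 147 CPM in 36 h replicate 6 (next 83.4). At the lowest levels, Adcy3 was 3.42 CPM in 8 h replicate 2 (next 0.828). In morulae Gpr3 was 6.83 CPM in replicate 1 (next 2.75), Pde3a 3.63 CPM in replicate 6 (next 0.804) and Prkaca 2.63 CPM in replicate 5 (next 0).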

How the results depend on the processing

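Across the alternatives (library size alone, no filter on low counts, DESeq2, 1 fit of all 96 libraries, the replicate block, libraries whose titles end in b left out, and each library left out), 977 of the refitted member changes kept direction and side of the threshold, 50 lost a call, 19 gained one and 12 changed sign. No reversed change was called. Those were Gpr149 between 0 h and oocytes (0.04 without 0 h replicate 1 or 2) and, between 12 h and oocytes, Gpr1 (-0.08 without 12 h replicate 2), Rgs2 (-0.23 with library size alone, -0.01 with no filter, -0.05 and -0.06 without 12 h replicate 3 and 4) and Prkaca (-0.06 with library size alone, -0.33 without 12 h replicate 5). The others were Gnas at 16 h (0.05 with library size alone, 0.00 without 14 h replicate 3) and Prkaca between 24 h and 12 h (0.14 without 12 h replicate 5). The cause was not tested.

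Counts of genes called moved by over 1.5 times in the fit of all 96 libraries, to 1601 (0 h against oocytes), 0 (2 h against 0 h), 1672 (12 h against 0 h), 61 (12 h against oocytes), 372 (16 h against 14 h) and 13219 (morulae against 36 h). Without titles ending in b they were 624 (16 h against 14 h) and 4068 (24 h against 12 h), with DESeq2 2051 at 16 h, with no filter 16826 for morulae, and without the 36 h group 8992 over the time course, where fewer groups were tested. Over all fits that left out 1 library, Gpr149 ran from -0.30 to 0.04 between 0 h and oocytes, Gpr1 from -0.08 to 0.88, Rgs2 from -0.06 to 0.15 and Prkaca from -0.33 to 0.39 between 12 h and oocytes, Gnas from -0.19 to 0.00 between 16 h and 14 h, and Prkaca from -0.56 to 0.14 between 24 h and 12 h. Such fits called 352 to 996 genes between 2 h and 0 h and 503 to 1859 between 16 h and 14 h.

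Embryos with the same title number were not paired by the data: correlations of their deviations ran from -0.20 to 0.34. With the number as a replicate block, 767 genes were called between 12 h and oocytes and 69 between 16 h and 14 h. The block ended the calls of Gpr1 between 0 h and oocytes (adjusted p = 0.0617) and between 12 h and 0 h (0.101), and of Gpr149 (0.397) and Prkaca (0.316) at 16 h. It added Rgs2 (-1.37, edgeR adjusted p = 0.0199) and Pde3a (-2.15, adjusted p = 1.8e-04) between 24 h and 12 h. A number with b was kept apart from the same number without it, so only numbers shared by both groups entered these changes. There were 4 between 24 h and 12 h and 3 between 16 h and 14 h, none of them with a b. Members at a few CPM, such as Adcy3, are limited by depth.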
